A study of Mus musculus with 2 samples.

Results

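The genes described here are 10 oncofetal genes linked to the microRNA let-7: the RNA-binding protein genes Igf2bp1, Igf2bp2, Igf2bp3, Lin28a and Lin28b, the chromatin protein genes Hmga1, Hmga1b and Hmga2, and the imprinted pair H19 and Igf2. They were taken from the expression table by gene symbol. Of the 10, 9 had a row among the 18067 genes of the table, and H19 was not analysed here. RNA from mouse cells labelled as stem cells of the small intestine was sequenced in 1 library of the circBtnl1 knockout genotype and 1 library of the circBtnl1 wild-type genotype. The number of mice, their age and strain, and how the knockout was made are not given in the sources used here. With 1 library per group, the values below compare 2 libraries only, with no spread between mice to set them against and no test.

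Oncofetal genes are active in the embryo, silent or low in most adult tissues, and often active again in tumours. In the best-known circuit the let-7 microRNAs, which rise as tissues mature, pair with sites in the 3' untranslated regions (3' UTRs) of Lin28b, Hmga2 and the Igf2bp mRNAs and lower their output, while the LIN28 proteins bind let-7 precursors and block their maturation. In the mouse intestine, Lin28b and the Igf2bp genes belong to the fetal program, and Hmga1 is a chromatin factor of crypt cells.

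The mature let-7 sequences are shown because their seed, bases 2 to 8, decides which mRNAs they pair with. RefSeq (GRCm38.p6) lists 9 mature 5p sequences of the family in the mouse, and all 9 carry the same seed. In these 4 of them the capitals mark the seed.
let-7a-5p (chromosome 13): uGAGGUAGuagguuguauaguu
let-7d-5p (chromosome 13): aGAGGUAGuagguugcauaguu
let-7i-5p (chromosome 10): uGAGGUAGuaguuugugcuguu
miR-98-5p (chromosome X): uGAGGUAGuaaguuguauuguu

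The DNA letters that pair with the whole seed, CTACCTC, were searched for on the sense strand of the longest annotated 3' UTR of each gene (GENCODE M21, GRCm38). Hmga2 held 4 matches in 3014 bases, Igf2bp1 4 in 6337 bases, Lin28b 4 in 4445 bases and Lin28a 2 in 2775 bases. Igf2bp2, Igf2bp3, Hmga1 and Hmga1b held 1 each, and Igf2 held 0. A match is a feature of the sequence and does not show that let-7 bound there, and no microRNA was measured. The first match of each gene on which the results turn is printed with its surroundings, in capitals.
Hmga2 (chr10:120364221-120364243, minus strand): gacattcaatttCTACCTCagca
Igf2bp1 (chr11:95961775-95961797, minus strand): gtgcgaagtaaaCTACCTCaagg
Igf2bp2 (chr16:22059470-22059492, minus strand): cacaaataaaagCTACCTCaggt
Igf2bp3 (chr6:49086784-49086806, minus strand): atttttactcaaCTACCTCaggt
Lin28b (chr10:45381019-45381041, minus strand): cgggcgggaagtCTACCTCatgc
Hmga1 (chr17:27563280-27563302, plus strand): tctgttcacaaaCTACCTCtgga
Hmga1b (chr11:120764001-120764023, plus strand): tctgttcacaaaCTACCTCtgga
The last 2 windows are the same letters at different places in the genome, because Hmga1b is a copy of the Hmga1 mRNA.

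The depth of the libraries was estimated at 17500000 reads in the knockout (16000000 to 20500000 over the length offsets tried) and 20500000 in the wild type (18500000 to 27750000), so the ranges overlap. Levels are given in TPM, a share of all transcripts in the library that is corrected for transcript length. A gene was called measured where the mean of its 2 values reached 1 TPM, which held for 12666 genes and for 5 of the 9 listed genes with a row. Ratios are log2((knockout TPM + 0.1)/(wild-type TPM + 0.1)), and folds are plain ratios of TPM. Calls at 2-fold use the log2 ratio, so a low gene with a plain fold just past 2 may fall short of the line. Over all measured genes the median log2 ratio was 0.39, so a value relative to the median gene is given beside each main ratio.

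Hmga2, Hmga1b and Igf2bp1 were far higher in the knockout library, Igf2bp2 was about at the 2-fold line, and Hmga1 was within 2-fold. Past the 2-fold line on the high side in the knockout library were 4 of the 5 measured genes, and on the low side 0, where the background over all measured genes was 23.1% on the high side and 5.25% on the low side. Relative to the median gene the counts were 3 and 0, and the background 13.5% and 10.2%. Of the measured listed genes, Igf2bp1 reached the floor of a mean of 1 TPM only through its knockout value (4.94 against 0.34 TPM). Its place on the high side was thus partly set by that floor, which also applied to the background. In bulk RNA, more cells that express a gene and more of its RNA per cell cannot be told apart.

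**Figure D1:**
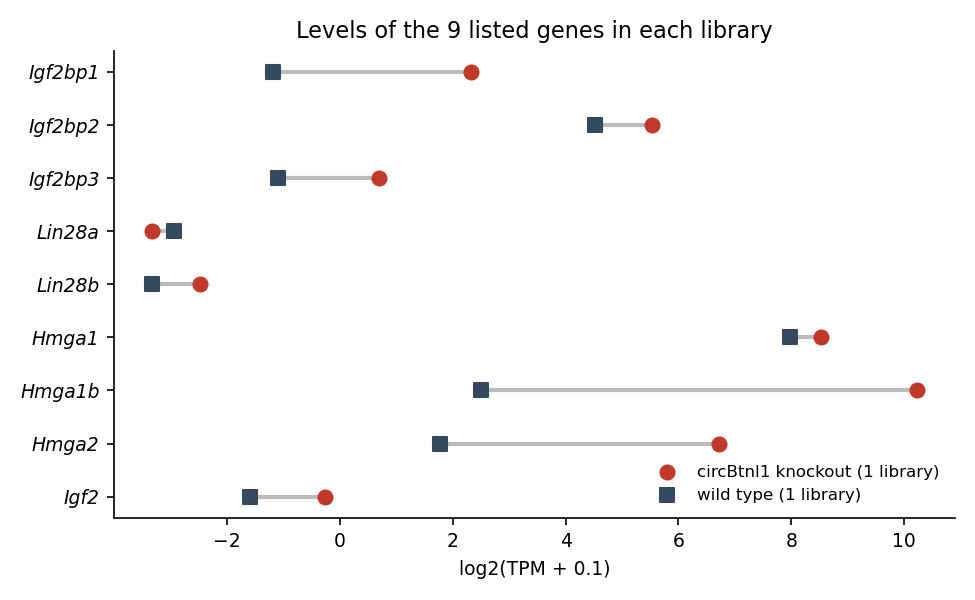
Level of each listed gene with a row in the table, as log2(TPM + 0.1), in the circBtnl1 knockout library (circles) and the wild-type library (squares), 1 library each. The gap is widest for Hmga1b (1193 against 5.57 TPM) and wide for Hmga2 and Igf2bp1, while Lin28a and Lin28b sit at the low end in both libraries.

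Among the RNA-binding proteins, the IGF2BP family binds target mRNAs, in part through m6A marks, and stabilises them. Igf2bp1, the fetal member most often studied in gut tumours, had 4.94 TPM in the knockout library and 0.34 TPM in the wild-type library. It was therefore low in the wild type and 14.5-fold higher in the knockout (log2 ratio 3.52, or 3.13 relative to the median gene), with the 403rd highest ratio of 12666. The wild-type value rests on few reads, about 27.3 at the estimated depth against about 363 in the knockout. The nearest measured neighbours of Igf2bp1 on chromosome 11 were within 2-fold. B4galnt2 stood at 512 TPM in the knockout and 479 TPM in the wild type, and Snf8 at 118 and 136 TPM.

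Igf2bp2, the member that stays active in many adult tissues, had 46.1 TPM in the knockout library and 22.9 TPM in the wild-type library. It was the most abundant Igf2bp gene in each library. Its fold was 2.01, just past the 2-fold line, and its log2 ratio relative to the median gene was 0.61, so its place past the line depends on the scaling.

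Igf2bp3 had 1.51 TPM in the knockout library and 0.37 TPM in the wild-type library. Its mean of 0.94 TPM lies just under the floor of 1 TPM, so it is not among the measured genes, and its log2 ratio of 1.78 (1.39 relative to the median gene) is given as a description. At the low end of the family, Igf2bp1 stood above Igf2bp3 in the knockout library. In the wild-type library they were nearly equal, at about 27.3 reads for Igf2bp1 and 15.8 for Igf2bp3, so their order there is not resolved.

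The LIN28 genes were near 0 in both libraries. Lin28a was listed at 0 in the knockout and stood at 0.03 TPM in the wild type. Lin28b stood at 0.08 TPM in the knockout and was listed at 0 in the wild type. At the estimated depth the larger of these values, that of Lin28b, is worth about 3.7 reads, so no fold is given, and a difference in either gene was not detectable at this depth.

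The HMGA proteins bind AT-rich DNA through AT-hook motifs and bend chromatin. Hmga2, the classic let-7 target, had 105 TPM in the knockout library and 3.32 TPM in the wild-type library. It was 31.5-fold higher in the knockout (log2 ratio 4.94, or 4.55 relative to the median gene), with the 186th highest ratio of the measured genes. By level it was the 1662nd most abundant gene in the knockout library and the 10187th in the wild-type library. Its nearest measured neighbours on chromosome 10 were Llph, 129 kb away, at 73.4 against 31.6 TPM, and Msrb3, 305 kb away, at 2.47 against 0.27 TPM. Their log2 ratios of 1.21 and 2.80 were past 2-fold higher in the knockout, as were 23.1% of all measured genes. Both ratios were below that of Hmga2, and the median gene had 0.39. A part of the region in the level of Hmga2 was not tested.

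Hmga1 had 369 TPM in the knockout library and 253 TPM in the wild-type library. It was among the abundant genes in each and differed by 1.46-fold, a log2 ratio of 0.55, or 0.16 relative to the median gene. Hmga1 lies on chromosome 17 (27556574 to 27563672, GRCm38), as does Btnl1, the gene whose name circBtnl1 carries, at a distance of 6.81 Mb. The nearest measured neighbours of Hmga1 were within 2-fold. Lemd2 stood at 45.2 TPM in the knockout and 32.2 TPM in the wild type, and AI413582 at 26.25 and 23.4 TPM.

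Hmga1b had 1193 TPM in the knockout library and 5.57 TPM in the wild-type library. This was the 21st highest ratio of the 12666 measured genes, 214-fold (log2 ratio 7.72, or 7.33 relative to the median gene), and it made Hmga1b the 126th most abundant gene of the knockout library, against the 9148th of the wild-type library. Hmga1b is a single-exon copy of Hmga1 on chromosome 11 (120762794 to 120764392 in RefSeq and 120762794 to 120764419 in GENCODE M21, which carries it further at the 3' end), whereas the closest annotated Hmga1 transcript has 5 exons. Neither measured neighbour was higher: Cbr2 had 32.5 TPM in the knockout and 91.8 TPM in the wild type, and Rfng 46.7 TPM in the knockout and 67.4 TPM in the wild type.

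**Figure D2:**
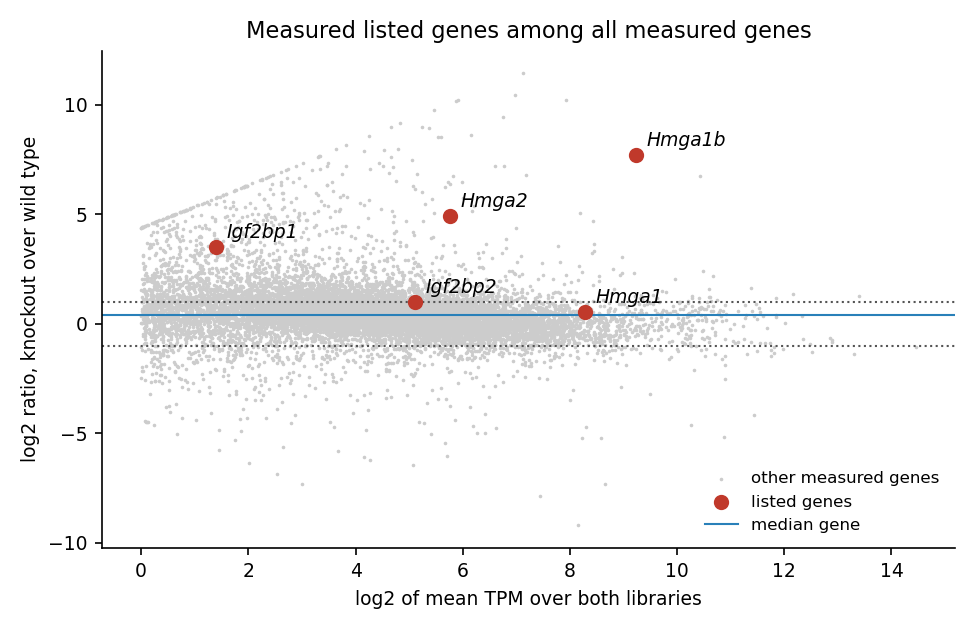
Log2 ratio of knockout over wild type against the log2 of the mean TPM for all 12666 measured genes (grey) and the 5 measured listed genes (red), with dotted lines at 2-fold and a blue line at the median gene (0.39). Hmga1b, Hmga2 and Igf2bp1 lie above most genes of like level, and Hmga1 lies near the median line.

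The sequences of Hmga1 and Hmga1b show how far their rows can be trusted as separate genes. The annotated Hmga1b transcript of 1626 bases aligned to its closest Hmga1 transcript over 1602 positions, of which 1599 were identical (99.8%). The coding region of 324 bases was identical in both (100%), and the 3 aligned bases that differed lay in the 3' UTR. Outside the aligned stretch, Hmga1 had 79 further bases at its 5' end and Hmga1b 24 further bases at its 3' end. Other annotated Hmga1 transcripts had coding regions of 264 to 357 bases. The 3 aligned differences are given with the Hmga1 base first, the position from 1 at the 5' end of that Hmga1 transcript, and the Hmga1b base last: A736G, A863G and G1325T. In the paired windows the capital marks the differing base.
Hmga1 (chr17:27562718-27562740, plus strand): gccgcagcccgAcctgctgcgca
Hmga1b (chr11:120763439-120763461, plus strand): gccgcagcccgGcctgctgcgca
Hmga1 (chr17:27562845-27562867, plus strand): taaggggccccAgccccatctca
Hmga1b (chr11:120763566-120763588, plus strand): taaggggccccGgccccatctca
Hmga1 (chr17:27563307-27563329, plus strand): tgtgttgttttGtttttgttcca
Hmga1b (chr11:120764028-120764050, plus strand): tgtgttgttttTtttttgttcca
Of the 1527 stretches of 100 bases in the Hmga1b transcript, 1203 (78.8%) occur letter for letter in an annotated Hmga1 transcript, and of the 1577 stretches of 50 bases, 1403 (89.0%) do. A read from those stretches cannot be assigned by its sequence, and the estimated split between the 2 rows is uncertain.

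**Figure D3:**
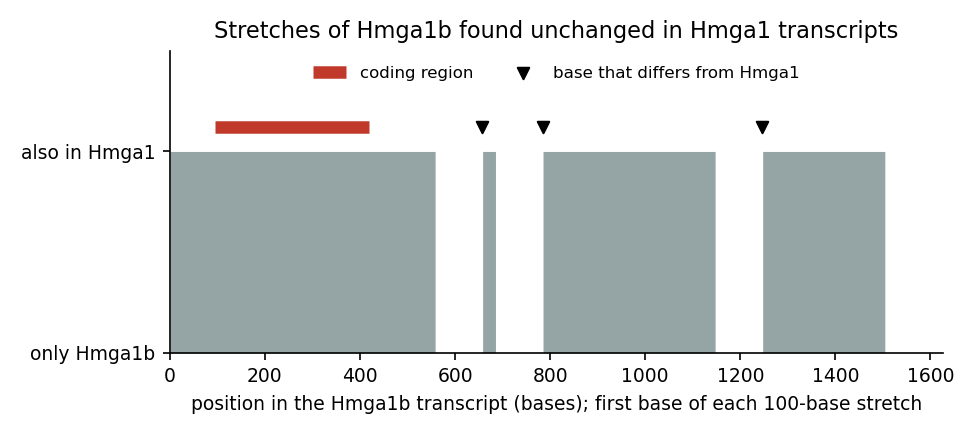
Stretches of 100 bases along the Hmga1b transcript (position of the first base, in bases) that also occur unchanged in an Hmga1 transcript (grey) or in Hmga1b alone (white). The red bar marks the coding region and the triangles the 3 differing bases, and the white gaps lie before those bases and at the far 3' end.

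The sum of the 2 rows depends little on that split. Hmga1 and Hmga1b together had 1562 TPM in the knockout library and 258 TPM in the wild-type library, which is 6.05-fold (log2 ratio 2.60, or 2.21 relative to the median gene). Hmga1b held 76.4% of this sum in the knockout library and 2.16% in the wild-type library. The summed HMGA1 signal was thus higher in the knockout, while the 214-fold of Hmga1b and the 1.46-fold of Hmga1 each rest on the authors' division of shared reads.

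The imprinted growth factor gene Igf2, expressed mainly in the fetus and controlled together with H19 in the same imprinted region, had 0.73 TPM in the knockout library and 0.23 TPM in the wild-type library. Both values are under the floor, at about 23.7 and 8.2 reads, so Igf2 was low in each library. The list of the insulin-like growth factor pathway held 19 genes, among them ligands, receptors, binding proteins, adaptors and the pappalysin proteases. Of these 10 were measured, with 3 past 2-fold on the high side (30%, against 23.1% of all measured genes) and 0 on the low side (against 5.25%). Relative to the median gene 2 were past 2-fold higher and 2 lower, where the shares over all measured genes were 13.5% and 10.2%. Their median log2 ratio was 0.14, or -0.25 relative to the median gene. The higher genes were the binding protein genes Igfbp6, at 40.3 TPM in the knockout against 9.08 TPM in the wild type, and Igfbp4, at 30.6 against 7.20 TPM, and the receptor gene Igf1r, at 5.83 against 2.70 TPM. Igf2r, whose product clears IGF2, stood at 32.7 TPM in the knockout and 29.6 TPM in the wild type, Irs1 at 0.97 and 2.01 TPM, and Igfbp5 at 3.42 and 5.32 TPM. Irs1 reached the floor only through its wild-type value.

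Other imprinted genes did not share 1 direction. Of 26 listed, 19 had a row and 10 were measured, 2 of them past 2-fold higher (20%, against 23.1% of all measured genes) and 1 past 2-fold lower (against 5.25%), with a median log2 ratio of 0.22 (-0.17 relative to the median gene). The amino acid transporter gene Slc38a4 had 19.99 TPM in the knockout library and was listed at 0 in the wild-type library. Impact, a regulator of the kinase GCN2, was 3.01-fold higher, at 26.0 TPM in the knockout against 8.65 TPM in the wild type. Dlk1, a Notch-related ligand of fetal tissues, was 8.58-fold lower, at 0.50 TPM in the knockout against 4.29 TPM in the wild type. Slc38a4 reached the floor only through its knockout value and Dlk1 only through its wild-type value, which partly set their places past the line. Gnas stood at 951 TPM in the knockout and 1017 TPM in the wild type, and Cdkn1c, a cell-cycle inhibitor gene, at 4.67 and 6.13 TPM.

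The genes that make, use and destroy let-7 had a share past 2-fold near that of all measured genes. All 24 listed genes were measured, with 5 past 2-fold on the high side in the knockout library (20.8%, against 23.1% of all measured genes) and 0 on the low side (against 5.25%), and the median log2 ratio was 0.27, or -0.12 relative to the median gene. The 5 were Xpo5, the exporter of precursor microRNAs, at 40.8 TPM in the knockout against 16.6 TPM in the wild type, Ago3 at 5.76 against 2.47 TPM, which encodes an Argonaute protein, Hnrnpa1 at 354 against 170 TPM, Xrn2 at 58.4 against 27.9 TPM and Syncrip at 66.8 against 32.6 TPM. Relative to the median gene 0 of the 24 were past 2-fold higher and 1, Trim25, was past 2-fold lower, against 13.5% and 10.2% of all measured genes. Dicer1, which cuts the precursors, stood at 14.2 TPM in the knockout and 12.3 TPM in the wild type, Drosha at 31.7 and 38.2 TPM, the RNA helicase gene Ddx5 at 379 and 223 TPM, and the RNA-editing enzyme gene Adar at 44.7 and 55.0 TPM. The uridylating enzyme gene Tut4 (listed under its older symbol Zcchc11), which acts with LIN28 on let-7 precursors, stood at 8.63 TPM in the knockout and 6.28 TPM in the wild type. Trim25, described as a partner of LIN28A in that step, stood at 65.4 TPM in the knockout against 107 TPM in the wild type.

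Other genes described as let-7 targets had a share past 2-fold near that of all measured genes. Of 26, 24 were measured, with 6 past 2-fold on the high side (25%, against 23.1% of all measured genes) and 0 on the low side (against 5.25%), and the median log2 ratio was 0.31, or -0.08 relative to the median gene. Myc was 5.96-fold higher, at 136 TPM in the knockout against 22.7 TPM in the wild type, and Cdk6 was 3.47-fold higher, at 15.2 against 4.38 TPM. Hras stood at 105 TPM in the knockout and 113 TPM in the wild type, Cdc34 at 155 and 136 TPM, Arid3a at 2.62 and 3.70 TPM, and Plagl2, at the low end, at 29.5 and 58.5 TPM. Trim71, an embryonic target, stood at 0.04 TPM in the knockout and was listed at 0 in the wild type.

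Across all measured genes with a coding transcript in GENCODE M21 (12425, of which 43 had no annotated 3' UTR and counted as holding 0 matches), the ratio differed little with the number of seed matches. The median log2 ratio was 0.40 over 11153 genes with 0 matches, 0.33 over 1114 genes with 1, 0.39 over 137 genes with 2 and 0.48 over 21 genes with 3 or more. The share past 2-fold higher was 23.1% with 0 matches, 21.4% with 1, 21.9% with 2 and 23.8% with 3 or more. Genes with matches had longer 3' UTRs, with a median of 2302 bases over the 1272 genes with at least 1 match against 997 bases over those with 0. Hmga2 and Igf2bp1 are among the 21 genes with 3 or more matches, and both are among the 5 of these past 2-fold higher.

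**Figure D4:**
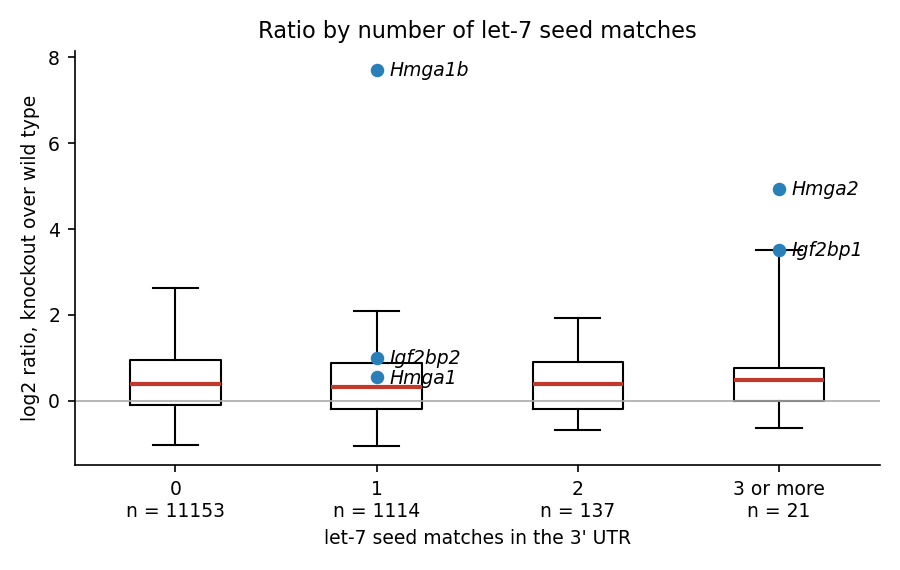
Log2 ratio of knockout over wild type for measured genes by the number of let-7 seed matches in the 3' UTR. Boxes span the quartiles with the median in red, whiskers reach the 5th and 95th percentiles, and blue points are the 5 measured listed genes. The medians lie between 0.33 and 0.48, and Hmga1b and Hmga2 lie beyond the whiskers of their groups. The group of Hmga2 holds only 21 genes, so its top gene lies beyond the whisker whatever its ratio.

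Of the 10 mRNAs listed as bound by IGF2BP proteins 9 were measured, with 3 past 2-fold on the high side (33.3%, against 23.1% of all measured genes) and 0 on the low side (against 5.25%), and a median log2 ratio of 0.69 (0.30 relative to the median gene). Fscn1, which bundles actin, stood at 34.8 TPM in the knockout against 0.72 TPM in the wild type (48.3-fold). It reached the floor only through its knockout value, which partly set its place past the line. Cd44, a hyaluronan receptor, stood at 80.2 against 14.5 TPM, and Myc, also on the let-7 list, was the third. Actb, the mRNA on which the chicken IGF2BP1 protein was first described, was 1.85-fold lower, at 2383 TPM in the knockout against 4402 TPM in the wild type, and Srf, also at the low end, stood at 31.8 and 57.6 TPM. Relative to the median gene 3 of the 9 stood past 2-fold on the high side and 2, Actb and Srf, on the low side, against 13.5% and 10.2% of all measured genes.

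The other high mobility group genes encode proteins that bind DNA or nucleosomes mostly without AT-hooks. Of 15 listed, 14 were measured, with 2 past 2-fold on the high side (14.3%, against 23.1% of all measured genes) and 0 on the low side (against 5.25%), and the median log2 ratio was 0.78, or 0.39 relative to the median gene. Hmgn3, a nucleosome-binding protein gene, stood at 13.3 TPM in the knockout against 0.63 TPM in the wild type, and Hmgn1 was 2.88-fold higher, at 167 against 58.1 TPM. Hmgn3 reached the floor only through its knockout value, which partly set its place past the line. Hmgb2 stood at 251 TPM in the knockout and 139 TPM in the wild type, Hmg20b at 115 and 112 TPM, and Hmgn2 at 209 and 231 TPM.

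**Figure D5:**
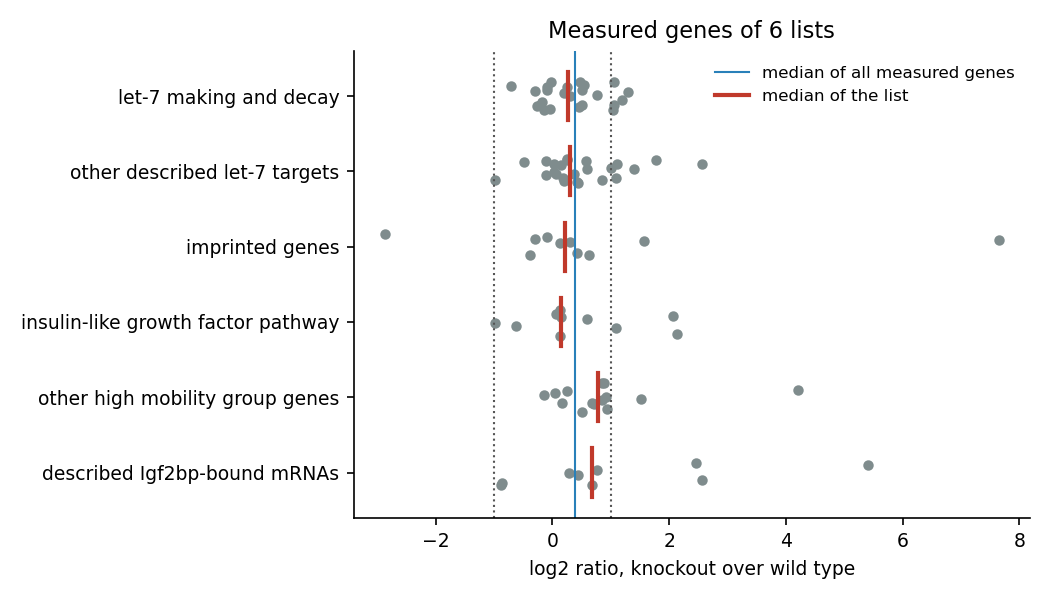
Log2 ratio of knockout over wild type for each measured gene (grey points) of the 6 lists, with the list's median in red, the median of all measured genes in blue and dotted lines at 2-fold. The list medians run from 0.14 to 0.78, and single genes such as Slc38a4, Fscn1 and Hmgn3 lie far to the right.

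Levels of marker genes of several cell types are given, since members of these families are also expressed outside the epithelium. Of 12 intestinal stem cell markers 10 were measured, and 8 of them were within 2-fold. On the high side 1 was past 2-fold (10%, against 23.1% of all measured genes), and on the low side 1 (against 5.25%). The higher one was Znrf3, at 5.63 TPM in the knockout and 2.43 TPM in the wild type, and the lower one Smoc2, at 7.72 and 15.5 TPM. Relative to the median gene 0 were past 2-fold higher and 2 lower, against 13.5% and 10.2% of all measured genes. Lgr5 stood at 1.55 TPM in the knockout and 3.13 TPM in the wild type, Sox9 at 39.2 and 21.3 TPM, Prom1 at 150.2 and 119.6 TPM and Slc12a2 at 62.1 and 55.2 TPM. Olfm4 was listed at 0 in the knockout and stood at 0.20 TPM in the wild type. Lgr5 and Olfm4 were thus below the median level of all genes in each library (9.88 TPM in the knockout and 5.91 TPM in the wild type). Sox9, Prom1 and Slc12a2 were above it in each. Whether the cells were stem cells, as labelled, was not tested. The 9 epithelial markers were abundant in each library, with 0 past 2-fold higher (against 23.1% of all measured genes) and 2 lower (against 5.25%). The 2 were Krt20 at 919 TPM in the knockout and 2065 TPM in the wild type and Vil1 at 467 and 1019 TPM. Relative to the median gene 0 of the 9 were past 2-fold higher and 5 lower, against 13.5% and 10.2% of all measured genes. Their summed level was 15022 TPM in the knockout and 26069 TPM in the wild type, most of it from the keratin genes Krt8 (5410 against 9793 TPM) and Krt19 (5655 against 9542 TPM). Epcam stood at 961 TPM in the knockout and 1325 TPM in the wild type, and Cdx2, the 1 epithelial marker with a higher level in the knockout, at 222 and 146 TPM. Mesenchymal markers, which mark a cell type that expresses Hmga2 and Igf2bp1 in the embryo, had a summed level of 343 TPM in the knockout and 68.8 TPM in the wild type. Of 15 such markers 12 were measured, 7 of them past 2-fold higher (58.3%, against 23.1% of all measured genes) and 3 past 2-fold lower (against 5.25%), and none (0) was listed at 0 in either library. Relative to the median gene 6 were past 2-fold higher and 4 lower, against 13.5% and 10.2% of all measured genes. Vim stood at 167 TPM in the knockout and 20.9 TPM in the wild type, Col1a2 at 64.4 and 3.76 TPM, Zeb2 at 12.1 and 0.22 TPM and Foxf1 at 22.4 and 0.04 TPM, whereas Acta2 stood at 0.81 and 4.06 TPM and Des at 0.52 and 1.77 TPM. Zeb2, Foxf1 and Twist1 (12.9 and 0.33 TPM) reached the floor only through their knockout values, and Acta2 and Des only through their wild-type values. Their places past the line were thus partly set by that floor, which also applied to the background. The part of these cells in the levels of Hmga2, Hmga1b and Igf2bp1 was not tested.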

How the data were processed

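Total RNA was made into libraries with an MGI kit and sequenced on BGISEQ-500, per the labels' protocols. The authors deposited 1 table of genes with TPM values for each library, and the same deposited table gives FPKM values (fragments scaled to transcript length and library size), each with 2 decimals. Named in the submitters' processing notes are mm10, Bowtie2, RSEM and DESeq2, with no version or role. Of 18068 lines 1 held no values. The columns not used numbered 0.

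The listed genes, gene lists and tests were chosen with earlier results of these data known. TPM was used as deposited, with a pseudocount of 0.1 TPM on the log2 scale, which understates the change of low genes, and a floor of a mean of 1 TPM. No counts were used and no test was run, since each group had 1 library. Depth was estimated from the steps between low FPKM values. At the best depth and length offset of those tried, 56.0% of 182 genes in the knockout and 57.9% of 126 in the wild type fell within 0.15 of a whole read. Chance gives 30% at 1 fixed setting and more for the best of many, so these shares do not test the estimate. Read numbers are approximate. Seed matches came from GENCODE M21 transcripts, and Hmga1 was aligned to Hmga1b with Biopython 1.88. GRCm38 is the build called mm10. In each list, the text names the 2 highest and 2 lowest measured ratios, the 2 most abundant genes and genes listed at 0 in 1 library with at least 1 TPM in the other. Xrn2, Syncrip, Dicer1, Drosha, Tut4, Trim71, Igf1r, Cd44, Olfm4, Twist1, Pou5f1, Zfp42, Ddx4, Nanog, Dppa3, Dppa5a and the neighbours of the measured listed genes were named beyond that rule after their values were seen. Alternatives were other pseudocounts, FPKM, 3 scalings, other floors and thresholds, and the sum of Hmga1 and Hmga1b.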

Additional observations from a re-analysis of the deposited data

How the results depend on the processing

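No paired analysis was possible because each group had 1 library. Of 32 ratios of the 5 measured listed genes under alternatives, 0 changed sign and 29 stayed within 0.5 of the value given on the log2 scale. That 0 was fixed in advance and shows no robustness. A pseudocount cannot reverse a ratio, and FPKM differs from TPM by a near-equal factor in each library. The scalings shift by at most 0.40, under the smallest of these ratios (0.55 for Hmga1). The sum joins 2 rows that were both higher in the knockout. With a pseudocount of 1 TPM the log2 ratio of Igf2bp1 was 2.15, which follows from its low wild-type level. With Hmga1 and Hmga1b summed, the ratio for each became 2.60. The count of listed genes at least 2-fold higher, 4 of 5, was 3 of 5 under each of the 3 scalings (trimmed mean, upper quartile, median gene), with a pseudocount of 1 TPM and at 4-fold. It was 3 of 4 at a floor of 5 TPM, which removes Igf2bp1, 6 of 9 with no floor and 4 of 4 with Hmga1 and Hmga1b summed. Apart from the median gene scaling (13.5%), the background share was not counted under these alternatives. All 48 alternative list medians stayed within 0.5, and 13 changed sign. The 3 scalings shift a log2 ratio by no more than 0.33 to 0.40. Staying within 0.5 was therefore fixed in advance for them, and nearly so for FPKM, here and for the ratios of the listed genes. Apart from the imprinted genes with no floor (median -0.10), the sign changes came with these scalings. They fell in the lists whose medians (0.14 to 0.31) lay below the shift, so they too were fixed by it. The difference in median ratio between genes with a let-7 seed match and genes with 0 was -0.06, and lay between -0.08 and -0.03 under alternatives. Depth limits Lin28a, Lin28b, Igf2 and Igf2bp3, and the absence of replicates limits every value.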

Other observations

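Few markers of early embryonic and fetal cells were measured. They were 1 of 10 for pluripotent and germ cells and 2 of 8 for fetal liver, yolk sac and placenta. Sox2, a pluripotency and foregut factor, had 9.44 TPM in the knockout library and 0.26 TPM in the wild-type library, whereas Pou5f1, Zfp42 and Ddx4 were listed at 0 in both libraries. Under the floor, Nanog was higher in the knockout (0.92 against 0.03 TPM), and Dppa3 (0.29 against 0.54 TPM) and Dppa5a (0.25 against 0.52 TPM) were lower. Afp, the fetal liver and yolk sac protein, had 12.4 TPM in the knockout and 0.10 TPM in the wild type, whereas Ttr had 7.86 TPM in the knockout and 9.78 TPM in the wild type. Blood cell markers were lower in the knockout, with a summed level of 14.4 TPM against 177 TPM in the wild type, most of it from the hemoglobin genes Hbb-bs (2.40 against 82.3 TPM) and Hba-a1 (3.16 against 74.7 TPM). Alas2, the heme synthesis gene of red cell precursors, was listed at 0 in the knockout and stood at 1.19 TPM in the wild type. The T cell gene Cd3e had 2.19 TPM in the knockout against 3.99 TPM in the wild type, and the myeloid gene Itgam 1.32 against 1.86 TPM. Of 6 endothelial markers only Pecam1 was measured, at 1.10 TPM in the knockout and 0.98 TPM in the wild type.

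The 3 named coding genes closest to Hmga1b over both levels, by distance on the log2(TPM + 0.1) scale, were Tnfrsf12a, the receptor of the cytokine TWEAK, at 568 TPM in the knockout and 17.0 TPM in the wild type (distance 1.92), Fosl1 at 288 and 2.52 TPM (distance 2.33) and Lgals1, which encodes galectin-1, at 2722 and 24.8 TPM (distance 2.44). Likeness over 2 libraries is only a likeness of 2 values.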
